A study of Mus musculus with 6 samples.

Results

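Genes of the tight junction were examined in single-cell RNA sequencing (scRNA-seq) data of mouse bladder mucosa. The 10 genes were the claudins Cldn1, Cldn3, Cldn4, Cldn5, Cldn7 and Cldn8, occludin (Ocln), the junctional adhesion molecule A gene F11r, and the plaque genes Tjp1 and Tjp3. They were listed by name, were matched by Ensembl ID, and made up 10 of the 14338 genes that all tables list once mitochondrial and ribosomal protein genes are left out. Levels were read along the layers of the urothelium, in endothelial cells and over the healthy, acute and chronic conditions.

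Tight junctions seal the space between neighbouring epithelial or endothelial cells. Claudins are membrane proteins that form the strands and set which ions can pass, occludin and junctional adhesion molecules lie beside them, and zonula occludens proteins of the plaque tie the strands to actin. In the bladder, the barrier to urine is built by the superficial umbrella cells, which rest on intermediate and basal cells.

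The study induced bladder injury with cyclophosphamide (CPP), a drug whose metabolites reach the urine and damage the urothelium. All mice were 8-week-old wild-type C57BL/6. Healthy mice provided 2 libraries, mice examined 48 hours after CPP (acute) 2 libraries, and mice given 4 rounds of CPP over 11 days (chronic) 2 libraries. The study's methods state that chronic bladders were also taken 48 hours after the last injection. Each chronic injection held a lower dose than the single acute one. By the study's methods, mice of both sexes were used and samples were processed and sequenced in batches; the labels name neither the mice of a library nor its batch, so a batch cannot be told apart from a condition and no within-batch value can be given. Nothing in the labels says how many mice each replicate pooled, and p-values between conditions measure the spread between the 2 libraries of each condition.

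The libraries held 5348 to 15062 cell barcodes and 54604109 to 111985678 unique molecular identifiers (UMIs), each UMI standing for 1 captured mRNA molecule. Pairs of libraries shared between 36 and 229 barcodes. Cells were clustered and scored without the junction genes. Levels are given as CPM, the UMIs of a gene relative to the UMIs of the 14338 genes in that class and library, scaled to a common total. UMIs of mitochondrial and ribosomal protein genes are not in that total. Marker lists were used to draw the layers and to name the cell types, so sums of these lists describe the classes and do not test them. The basal cells carried 5193 to 8528 CPM of the basal marker list, against 389.6 to 892 in superficial cells. Superficial markers summed to 15616 to 23445 CPM in superficial cells and to 1883 to 3530 CPM in basal cells. Endothelial cells held all 10 endothelial markers in every library tested, at 1816 to 7339 CPM against 9.43 to 23.8 CPM in urothelial cells. They also held 2457 to 8566 CPM of mesenchymal markers, against 207 to 947 CPM in urothelial cells. In healthy replicate 1, the only healthy library tested, endothelial cells held 790.9 CPM of mural and 46.0 CPM of natural killer (NK) cell markers. The other libraries held 45.2 to 151 CPM and 0 to 13.3 CPM of these lists. The part of these markers' cells in the endothelial values was not tested.

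The genes lie on 7 chromosomes (GRCm38). Cldn4 (chr5:134945119-134946934, minus strand) and Cldn3 (chr5:134986214-134987472, plus strand) are neighbours that point away from each other with 39279 bases between them. Cldn1 (chr16:26356642-26371841), Cldn5 (chr16:18776847-18778262) and Cldn8 (chr16:88560828-88563183) share chromosome 16 but lie far apart. Cldn3, Cldn4, Cldn5 and Cldn8 each consist of 1 exon.

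Promoters of 9 of the 10 genes were matched in RefSeq (GRCm38.p6). They are shown for the neighbours Cldn4 and Cldn3, of which the first was abundant and the second scarce in the urothelium, and for Cldn5, the endothelial claudin. Each is the 150 bases before the RefSeq start, 5′ to 3′ on the gene's own strand. Capitals mark matches to CAGGTG (the E-box bound by Snail factors, which repress epithelial junction genes), to AGATAA (read by zinc finger factors such as Gata3) or to AACNGGTT (grainyhead factors), on either strand. These letters are held by 10.6%, 5.65% and 1.05% of 32851 promoter windows of the same length, and a match is a description, not a binding site.
Cldn4, chr5:134946935-134947084, minus strand: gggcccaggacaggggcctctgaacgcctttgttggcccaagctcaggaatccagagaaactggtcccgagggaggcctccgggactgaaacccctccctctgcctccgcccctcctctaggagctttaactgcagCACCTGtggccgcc
Cldn3, chr5:134986064-134986213, plus strand: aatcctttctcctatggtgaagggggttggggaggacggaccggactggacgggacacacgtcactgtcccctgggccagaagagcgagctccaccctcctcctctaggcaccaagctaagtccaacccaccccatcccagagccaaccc
Cldn5, chr16:18776697-18776846, plus strand: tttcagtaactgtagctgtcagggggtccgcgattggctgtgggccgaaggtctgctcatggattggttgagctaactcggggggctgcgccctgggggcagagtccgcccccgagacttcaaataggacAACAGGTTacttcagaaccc
The E-box match of Cldn4 lay 14 to 9 bases before its start, and the grainyhead match of Cldn5 lay 20 to 13 bases before its start. The Cldn3 window held none of the 3 motifs. GC contents were 64.7%, 62.0% and 58.7%, against a median of 54.0% over all windows. Among the other matched genes, F11r, Tjp3, Cldn7 and Ocln had the E-box letters in at least 1 of their windows, and Tjp1 and Cldn1 did not.

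Along the layers, Cldn8 rose and most of the other genes fell as a share of the UMIs of the 14338 genes. UMIs of non-cycling basal, intermediate and superficial cells were added up within each library. The sums were tested in edgeR (quasi-likelihood), with the library as a block and Benjamini-Hochberg adjustment over 11412 genes. Genes with an adjusted p below 0.05 were called. Between superficial and basal cells, 8 of the 10 genes passed the filter on low counts. Of these, 2 rose (Cldn8 and Tjp3) and 6 fell (Cldn1, Cldn4, Cldn7, Ocln, F11r and Tjp1), where 66.5% of all genes were called, 31.9% higher and 34.6% lower. With so many genes called, the count of calls does not set these genes apart, and their sizes and directions are described instead. The median log2 fold change was −0.49 over the 8 genes and −0.02 over all genes. Of all calls, 48.0% were higher in superficial cells with TMM factors, which correct for differences in RNA composition, and 36.8% with total UMIs only, which moved the median of all genes to −0.15. The direction of no gene of the list was reversed by any scaling.

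**Figure D1:**
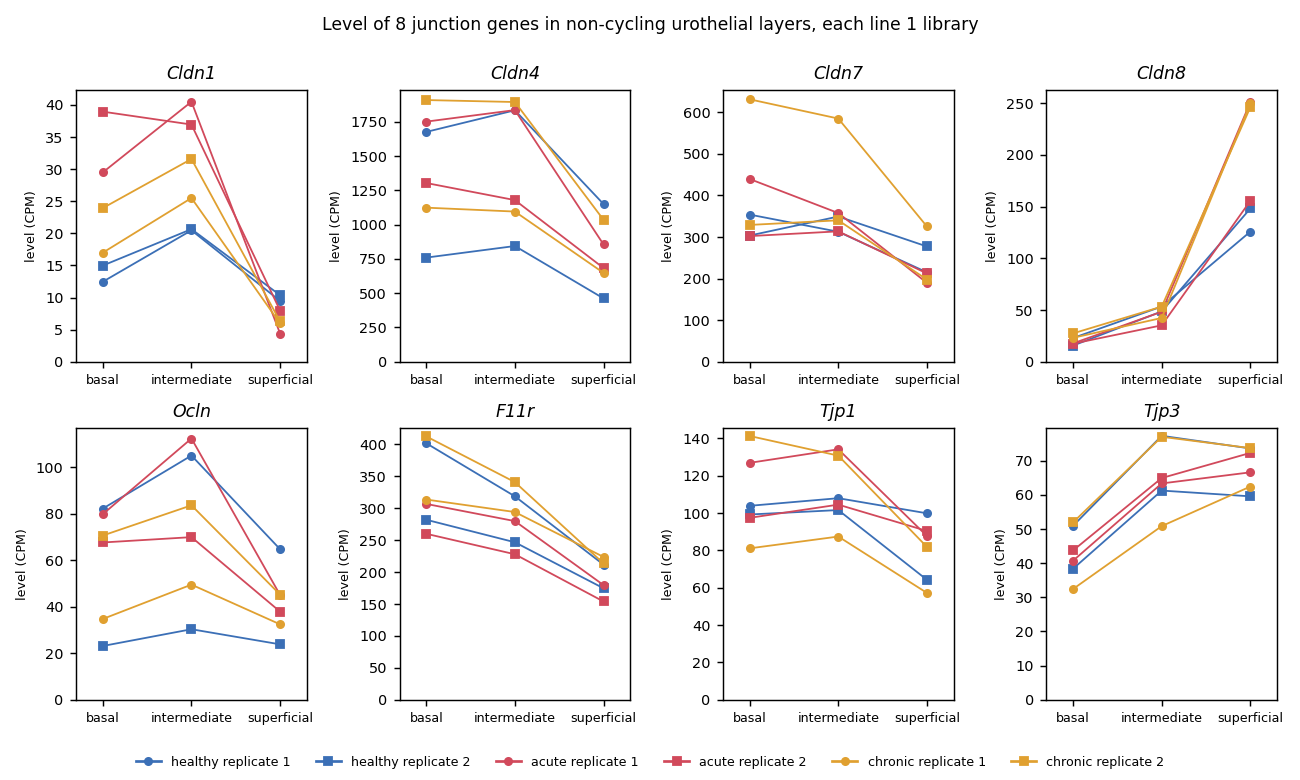
Levels of the tight junction genes in CPM on linear axes in non-cycling basal, intermediate and superficial cells, for the 8 genes tested, with 1 line per library coloured by condition. Cldn8 climbed in every library, from 15.6 to 27.4 CPM in basal to 126 to 251 CPM in superficial cells, while F11r and Cldn4 were lower in superficial cells of each library.

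Cldn8, a claudin of tight epithelia such as the collecting duct, had the steepest gradient. In basal cells it ranged from 15.6 to 27.4 CPM with a median of 20.4 over the 6 libraries. In intermediate cells it ranged from 35.2 to 53.4 CPM (median 48.5), and in superficial cells from 126 to 251 CPM (median 201). The ranges of the 3 layers did not overlap. The log2 fold change between superficial and basal cells was 3.39 ± 0.14 (SE, adjusted p = 8.7e-15), and it was 2.12 ± 0.12 between superficial and intermediate cells (adjusted p = 3.2e-12) and 1.27 ± 0.14 between intermediate and basal cells (adjusted p = 3.3e-07). When each library's urothelial cells were instead split into quintiles by superficial minus basal score, the mean Cldn8 level went through 19.1, 29.5, 38.9, 51.0 and 143 CPM, and it was higher at every step in 6 of 6 libraries. At least 1 Cldn8 UMI was seen in a median of 66.9% of superficial, 21.0% of intermediate and 7.41% of basal cells, and in 1.86% of mesenchymal cells, which serve as background. Median depths, counted over the 14338 genes, differed. They were 6695 to 11080 UMIs per superficial cell, 3789 to 5526 per intermediate cell, 2794 to 4601 per basal cell and 1963 to 3649 per mesenchymal cell. After cells were thinned to 2000 UMIs the shares were 30.5%, 8.85%, 4.35% and 1.22%, in the same order. Thinning left out 3.78% of superficial, 3.31% of intermediate, 2.18% of basal cells as too shallow, and a larger share of mesenchymal cells. Daglb (Pearson r = 0.986), a diacylglycerol lipase gene, and Hip1r (r = 0.983) had the most similar levels over the 18 sums of 6 libraries and 3 layers, which share libraries and depth. The mural marker list also moved with the layers, from a summed 52.5 to 96.1 CPM in basal cells to 251 to 478 CPM in superficial cells. Rgs5 went from 19.2 to 48.7 CPM in basal to 200.5 to 453 CPM in superficial cells. Of the other 6 mural markers, Acta2 (2.32 to 38.6 CPM in basal, 1.56 to 31.6 CPM in superficial cells) and Notch3 (17.8 to 42.6 and 12.0 to 29.3 CPM) overlapped between these layers, and Cspg4, Des, Myh11 and Pdgfrb each stayed at or below 4.16 CPM.

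**Figure D2:**
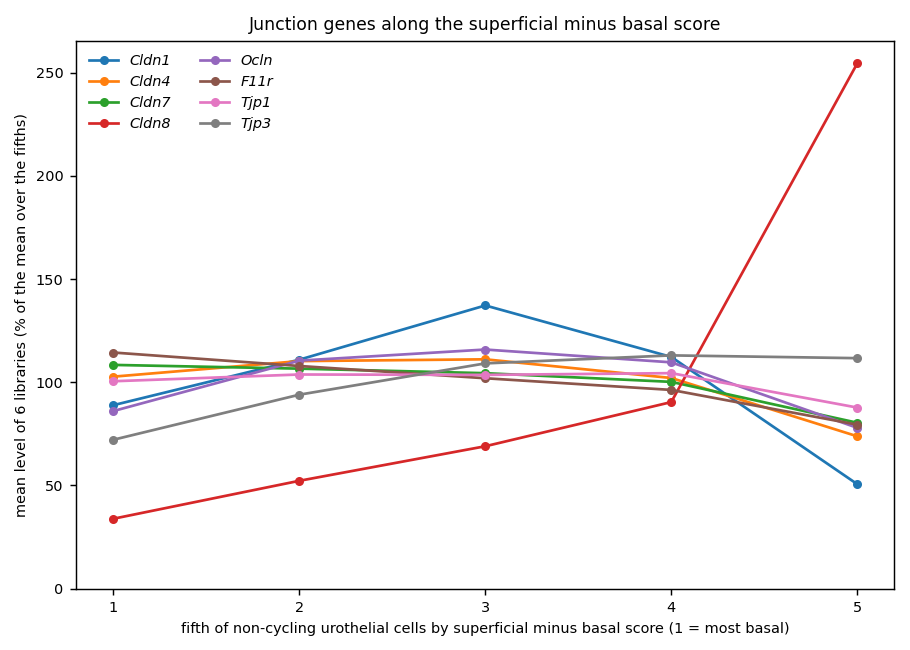
Mean level over the 6 libraries of each of 8 genes, as percent of the gene's mean over the quintiles, against quintiles of the non-cycling urothelial cells from the lowest to the highest superficial minus basal score. Cldn8 climbs at every step to the highest quintile (143 CPM), and Cldn1 peaks in the middle quintile (35.4 CPM).

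Cldn1, a barrier claudin of stratified epithelia, had its highest level in intermediate cells and its lowest in superficial cells. It ranged from 12.5 to 39.0 CPM in basal cells (median 20.5), from 20.5 to 40.5 CPM in intermediate cells (median 28.5) and from 4.40 to 10.4 CPM in superficial cells (median 7.13). Each superficial value was below each basal and intermediate value, while the basal and intermediate ranges overlapped. Over all 6 libraries, superficial cells were lower than basal cells by a log2 fold change of −1.64 ± 0.21 (adjusted p = 3.6e-07, edgeR) and lower than intermediate cells by −2.05 ± 0.18 (adjusted p = 3.1e-09). The step from basal to superficial cells was smaller in healthy libraries. There the log2 ratio of superficial to basal CPM was −0.40 and −0.53, against −1.51 to −2.75 in the injured libraries. Intermediate cells were higher than basal cells by 0.41 ± 0.14 (adjusted p = 0.020), in 5 of 6 libraries, and this call was lost without chronic replicate 1 (0.39, adjusted p = 0.050) or chronic replicate 2 (0.40, adjusted p = 0.062). With quintiles 1, 3 and 5 as basal, intermediate and superficial layers, the difference between superficial and basal cells was smaller, at −0.66 (adjusted p = 0.0077). Only 20 to 48 Cldn1 UMIs per library were behind the superficial levels, and 22 to 285 behind the basal levels. The genes most like it over the 18 sums were Cd24a (r = 0.941) and Tgfb1 (r = 0.925).

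Cldn4 and Cldn7 are claudins that most epithelia use, and Cldn4 took the largest share of the UMIs of the 10 genes in each layer. UMIs count molecules from their 3′ ends and were not scaled by gene length. Cldn4 made up between 49.4% and 64.3% of these UMIs in basal cells, and 37.7% to 58.9% in superficial cells. Its levels were 759.7 to 1909 CPM in basal cells (median 1490.1), 844 to 1895 CPM in intermediate cells (median 1507) and 462 to 1150.4 CPM in superficial cells (median 769.8). The layers' ranges overlapped and healthy replicate 2 was the lowest in every layer, but within each library the superficial level was the lowest. Cldn4 fell by 0.68 ± 0.06 on the log2 scale between basal and superficial cells (adjusted p = 4.0e-09, edgeR) and was not called between basal and intermediate cells (0.09 ± 0.06, adjusted p = 0.28). Cldn7 ranged from 302 to 631 CPM in basal cells (median 341) and from 189.8 to 325 CPM in superficial cells (median 214), and chronic replicate 1 was the highest in each layer. It fell by 0.58 ± 0.10 on the log2 scale (adjusted p = 1.5e-05), while intermediate and basal cells differed by 0.01 ± 0.09 (adjusted p = 0.95). With quintiles as layers both differences were smaller and still called, at −0.36 for Cldn4 (adjusted p = 4.5e-04) and −0.30 for Cldn7 (adjusted p = 0.011). Pim1 (r = 0.963) and Picalm (r = 0.956) were most like Cldn4, and Med27 (r = 0.920) and Urah (r = 0.916) most like Cldn7.

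Cldn3, a sealing claudin, was near the detection limit. It stood at 0 to 3.16 CPM in every layer and library, in contrast to its neighbour Cldn4, and failed the filter on low counts in the layer comparisons. In intermediate cells, 3 UMIs, the smallest count held to be detectable, would have amounted to between 0.114 and 0.206 CPM, so the gene was above that floor there in each library. At most 1.10% of the intermediate cells of a library held a Cldn3 UMI (chronic replicate 1, median 0.325%), and 0 to 0.820% of mesenchymal cells did (median 0.0382%). Its most similar genes were Scamp2 (r = 0.823) and Ppp2r3c (r = 0.799).

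Occludin, the first membrane protein described in tight junctions, was highest in intermediate cells. It ranged from 23.1 to 82.2 CPM in basal cells (median 69.2), from 30.3 to 112 CPM in intermediate cells (median 76.8) and from 23.8 to 64.8 CPM in superficial cells (median 41.5). These ranges overlapped throughout, with healthy replicate 2 and chronic replicate 1 at the low end. Within libraries, intermediate cells were higher than basal cells in 6 of 6 by 0.37 ± 0.09 (adjusted p = 0.0013, edgeR), and superficial cells were lower than intermediate cells in 6 of 6 by a log2 fold change of −0.77 ± 0.09 (adjusted p = 2.0e-07). The difference between superficial and basal cells was −0.40 ± 0.10 (adjusted p = 0.0011) with sub-clusters as layers but −0.01 (adjusted p = 0.91) with quintiles. The quintiles redraw all 3 layers. Quintile 5 held 1049 and 1269 cells in the healthy libraries, where the superficial class held 291 and 226, so it takes in many cells outside that class. Rab11fip1 (r = 0.957) and 2810403A07Rik (r = 0.915) were closest to it.

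F11r encodes JAM-A, an immunoglobulin-like adhesion protein of junctions. Its level was 260.0 to 413 CPM in basal cells (median 310.2), 228 to 341 CPM in intermediate cells (median 287) and 154 to 224 CPM in superficial cells (median 196), and all superficial values were below all basal and intermediate values. Superficial cells were lower than basal cells by a log2 fold change of −0.63 ± 0.06 (adjusted p = 1.4e-09, edgeR) and lower than intermediate cells by −0.49 ± 0.05 (adjusted p = 1.2e-07). The smaller difference between intermediate and basal cells, −0.14 ± 0.05 (adjusted p = 0.033), had the same sign in 6 of 6 libraries. It was no longer called without healthy replicate 1 (−0.11, adjusted p = 0.12), healthy replicate 2 (−0.15, 0.064), acute replicate 1 (−0.16, 0.055), acute replicate 2 (−0.14, 0.077) or chronic replicate 2 (−0.14, 0.089). Lama5 (r = 0.954) and U2af2 (r = 0.949) were the most similar genes.

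The plaque genes diverged. Tjp1 encodes ZO-1, the scaffold that links claudins to actin, and Tjp3 encodes its relative ZO-3, which is found mainly in epithelia. Tjp3 ranged from 32.4 to 52.0 CPM in basal cells (median 42.2), from 50.9 to 77.3 CPM in intermediate cells (median 64.2) and from 59.6 to 73.7 CPM in superficial cells (median 69.5). Superficial levels all lay above basal levels. Tjp3 was higher in superficial than in basal cells by 0.81 ± 0.06 on the log2 scale (adjusted p = 2.3e-10, edgeR), and most of this step was already present between basal and intermediate cells (0.67 ± 0.06, adjusted p = 6.3e-09). The rest, 0.14 ± 0.06 between intermediate and superficial cells, passed narrowly (adjusted p = 0.044) although only 3 of 6 libraries were higher, and it failed without acute replicate 1 (0.13, adjusted p = 0.11), acute replicate 2 (0.15, 0.063), chronic replicate 1 (0.10, 0.15) or chronic replicate 2 (0.16, 0.051). Tjp1 ranged from 81.1 to 141 CPM in basal cells (median 102), and from 57.2 to 99.9 CPM in superficial cells (median 84.8), with overlap between them. It fell by 0.28 ± 0.08 on the log2 scale (adjusted p = 0.0043), in 6 of 6 libraries, and with quintiles as layers the difference was −0.09 (adjusted p = 0.27). Svip (r = 0.936) and Smco4 (r = 0.902) were most like Tjp3, and Rap2c (r = 0.907) and Arhgef12 (r = 0.905) most like Tjp1.

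**Figure D3:**
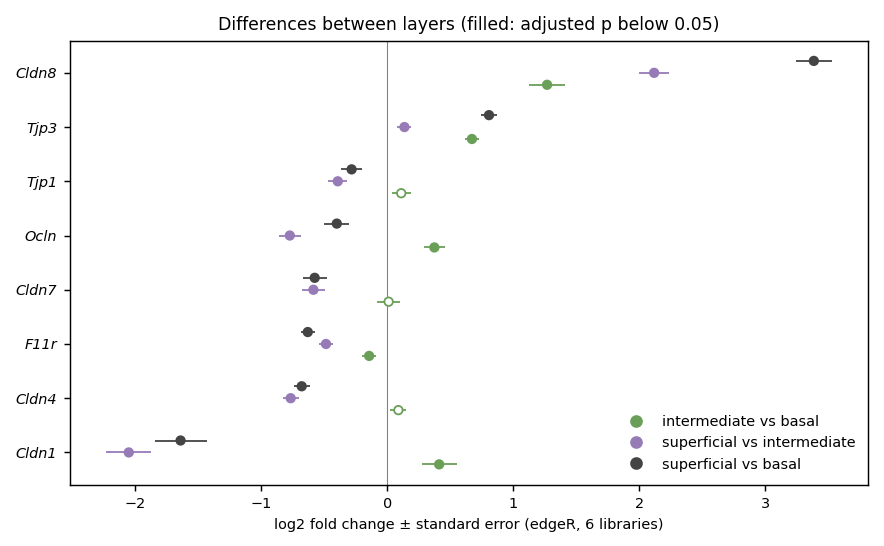
Log2 fold change ± SE (edgeR, 6 libraries) of each tested gene on the horizontal axis, for superficial against basal, superficial against intermediate and intermediate against basal cells, with filled points where the adjusted p was below 0.05. Cldn8 lies farthest to the right at 3.39 for superficial against basal cells, and Cldn1 farthest to the left at −2.05 for superficial against intermediate cells.

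The falls were falls in the share of the UMIs of the 14338 genes, since superficial cells yielded more UMIs each. With all genes counted, median depth was 7083 UMIs per cell in sub-cluster 0 (69.8% basal) and 13840 in sub-cluster 3, which is superficial. The part of the genes left out of the total, such as ribosomal protein genes, in the size of the falls was not tested. Counted per cell without scaling to depth, the mean of Cldn4 was 2.87 to 7.58 UMIs in basal and 3.95 to 12.9 UMIs in superficial cells. F11r gave 0.969 to 1.66 UMIs per basal and 1.47 to 2.38 UMIs per superficial cell. On this scale superficial cells were above basal cells in 6 of 6 libraries for Cldn4, Cldn7, Cldn8, F11r, Ocln, Tjp1 and Tjp3, and in 2 of 6 for Cldn1. Cldn1 thus was the gene for which neither scale gave a higher superficial level in most libraries. A larger cell and a deeper capture of the same cell give the same counts and cannot be told apart.

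Between superficial and intermediate cells, 2 of the 8 genes tested rose and 6 fell, where 55.8% of all genes were called, 26.5% higher and 29.3% lower. With equal-sized score classes (quintiles) as layers, several of these falls were smaller but called, at −1.33 for Cldn1, −0.32 for Cldn7, −0.32 for F11r and −0.49 for Ocln, and Tjp3 was not called (0.09, adjusted p = 0.30). Between intermediate and basal cells, 4 rose (Cldn1, Cldn8, Ocln and Tjp3), 1 fell (F11r) and 3 were not called (Cldn4, Cldn7 and Tjp1), where 42.9% of all genes were called, 20.7% higher and 22.2% lower. Of 33 other tight junction genes tested, 14 were higher and 13 lower in superficial than in basal cells, and their median difference was −0.06 on the log2 scale. Of 20 adherens junction and desmosome genes, 9 were higher and 9 lower. Among these, Amotl1, an angiomotin that binds polarity proteins at the junction, had the largest fall. It stood at 62.6 to 98.7 CPM in basal and at 9.32 to 30.2 CPM in superficial cells, ranges that did not overlap (−2.15 ± 0.12, adjusted p = 3.7e-13, edgeR). Nectin3, an adhesion protein of adherens junctions, had the largest rise of the genes on these lists with a mean of at least 10 CPM. Its levels were 3.02 to 5.15 CPM in basal and 13.0 to 31.4 CPM in superficial cells (2.40 ± 0.16, adjusted p = 1.7e-11). Igsf5, which encodes JAM4, and the polarity kinase gene Prkcz (1.37 ± 0.09) rose as well, while the polarity scaffold gene Pard3 (−1.39 ± 0.09) and Nectin1 (−1.25 ± 0.10) fell.

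In endothelial cells Cldn5 was the claudin that rose, and its UMIs lay in a minority of the cells. Endothelial cells numbered 25 to 320 in the 5 libraries compared, and healthy replicate 2 was left out of the test because it held 15. Of 9 genes tested, Cldn5 rose, 6 fell (Cldn1, Cldn4, Cldn7, Cldn8, Ocln and Tjp3) and 2 were not called (F11r and Tjp1), where 32.7% of 12334 genes were called, 15.2% higher and 17.6% lower. Among all calls, 46.3% were higher in endothelial cells with TMM factors and 57.7% with total UMIs only, the median over all genes being −0.19 and −0.03. Over the 9 genes the median log2 fold change was −1.67.

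Cldn5, the main claudin of endothelial tight junctions, was at 538 CPM in endothelial cells of healthy replicate 1, 229.8 and 233 CPM in acute replicates 1 and 2, and 440.4 and 126 CPM in chronic replicates 1 and 2. In urothelial cells it was at most 1.31 CPM. The groups were separated in all 5 libraries by a log2 fold change of 8.84 ± 0.37 (adjusted p = 2.7e-18, edgeR). These levels rested on 117, 41, 140, 38 and 14 UMIs in the same order. They came from a minority of the cells, since a Cldn5 UMI was found in 23.1% of 52, 9.30% of 43, 7.81% of 320, 13.8% of 29 and 8.00% of 25 endothelial cells (median 9.30%), while the mean over all endothelial cells was 0.438 to 2.25 Cldn5 UMIs per cell. The median share in basal cells was 0.185%. After thinning to 2000 UMIs the medians were 9.30% and 0.0726%, with 47.5% of endothelial cells left out as too shallow. Endothelial cells had median depths of 1756 to 3902 UMIs. Over the urothelial sums, Supt4a (r = 0.815) and Csnk2a2 (r = 0.802) were most like Cldn5, at levels below 2.19 CPM that rest on few UMIs.

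**Figure D4:**
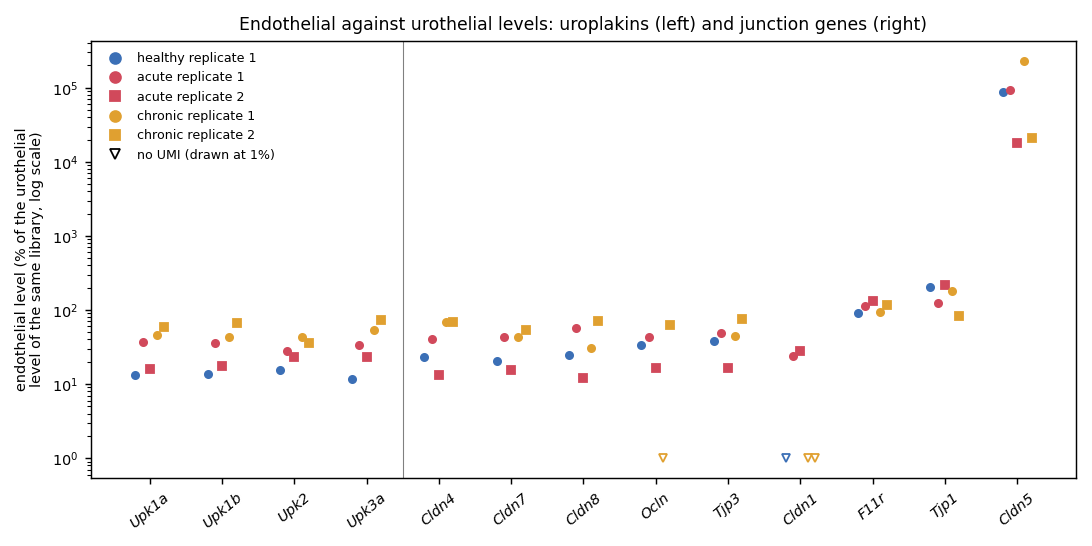
Endothelial level as percent of the urothelial level of the same library (log axis), 1 point per library, for 4 uroplakins on the left and 9 tight junction genes on the right, with genes without a UMI drawn at 1%. Cldn4, Cldn7, Cldn8, Ocln and Tjp3 lie at the height of the uroplakins, F11r and Tjp1 lie higher, and Cldn5 is far above all.

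Endothelial droplets also held urothelial RNA, which was measured by the uroplakins, membrane proteins of the urothelium. The 4 uroplakin genes Upk1a, Upk1b, Upk2 and Upk3a stood in endothelial cells at 11.9% to 73.5% of their urothelial level. Relative to the level that this background alone would give, Cldn4 stood at a median of 1.17 times (0.647 to 1.75 over libraries), Cldn7 at 0.960 times (0.763 to 1.55), Cldn8 at 1.15 times (0.588 to 1.83), Ocln at 1.01 times (0 to 2.48) and Tjp3 at 1.19 times (0.814 to 2.85). The medians of these 5 genes thus lay near 1 while single libraries lay on either side, and the part of urothelial RNA in their endothelial levels, such as 145 to 1165 CPM for Cldn4, was not tested. Cldn1 was listed at 0 UMIs in healthy replicate 1 and in both chronic libraries, where 3 UMIs would have given 13.8, 34.8 and 27.1 CPM, and at 5.60 and 8.32 CPM in the acute libraries. Its difference from urothelial cells was −2.57 ± 0.52 (adjusted p = 2.5e-04, edgeR), −3.91 without acute replicate 2 (adjusted p = 3.4e-04) and −1.49 with called doublets kept (adjusted p = 0.0065).

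F11r and Tjp1 lay above the background level in endothelial cells of each library, at medians of 3.22 and 4.08 times, although the lowest Tjp1 library lay within the ranges of Cldn4, Cldn7, Cldn8, Ocln and Tjp3 and the lowest F11r library within those of Ocln and Tjp3. F11r was at 267 to 370.4 CPM in endothelial cells (median 283), 1.85 to 6.77 times the level that the uroplakins predict, and at 214 to 319 CPM in urothelial cells of the same libraries. The ranges overlapped, and the log2 fold change was −0.06 ± 0.18 (adjusted p = 0.84, edgeR). Tjp1 was at 216 CPM in healthy replicate 1, 146 and 218 CPM in the acute libraries and 151 and 99.4 CPM in the chronic libraries, which was 1.31 to 15.2 times the predicted background. It was above the urothelial level in 4 of 5 libraries, chronic replicate 2 being the exception. The log2 fold change of 0.52 ± 0.21 missed the threshold (adjusted p = 0.062), and it passed without chronic replicate 2 (0.69, adjusted p = 0.0046). In mesenchymal cells, Tjp1 was at 34.7 to 48.6 CPM, 1.86 to 7.13 times the background there (median 2.92), and F11r stood at a median of 3.21 times (0.832 to 6.34). Endothelial cells also held mesenchymal markers, as given above, and the part of mesenchymal RNA in these values was not tested.

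Among the genes of the tight junction list, Jam2 (8.77 ± 0.31, adjusted p = 7.4e-20), Jam3 (6.48 ± 0.52, adjusted p = 1.4e-11) and Esam (6.18 ± 0.25, adjusted p = 1.1e-18, edgeR) had the largest rises in endothelial cells. They encode adhesion molecules of the same family as F11r. Jam2 stood at 99.4 to 308 CPM in endothelial cells and at 0 to 0.547 CPM in basal cells. Of 36 other tight junction genes tested, 8 were higher and 19 lower in endothelial cells, and of 20 adherens junction and desmosome genes 1 was higher and 15 were lower. The largest falls were those of Pard6b (−2.81 ± 0.47), Ildr1 (−2.80 ± 0.33) and Crb3 (−2.61 ± 0.29), genes of epithelial polarity and of tricellular contacts.

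Over cell types, the order of the mean levels differed from gene to gene. NK cells (3 libraries) and mural cells (2 libraries) had few cells and are given after each order. F11r had 329 ± 63.2 CPM (SD, n = 6 libraries) in basal, 297 ± 42.0 (n = 5) in endothelial, 285 ± 42.6 in intermediate, 193 ± 27.4 in superficial, 90.2 ± 36.9 in macrophage and 81.5 ± 28.9 in mesenchymal cells, and the ranges of the first 3 overlapped. F11r was at 146 ± 62.9 CPM in NK and 92.0 ± 79.2 CPM in mural cells. Tjp1 had 166 ± 50.7 CPM in endothelial, 111 ± 18.0 in intermediate, 108 ± 21.9 in basal, 80.2 ± 16.3 in superficial, 39.1 ± 5.24 in mesenchymal and 23.3 ± 8.05 in macrophage cells, and basal and intermediate cells differed by less than the spread between libraries. Tjp1 was at 59.9 ± 23.5 CPM in NK and 49.5 ± 41.7 CPM in mural cells. Cldn1 was not only urothelial, with 34.7 ± 10.1 CPM in mesenchymal, 29.3 ± 8.44 in intermediate, 22.8 ± 10.1 in basal, 10.4 ± 8.14 in macrophage and 7.41 ± 2.27 in superficial cells, beside 11.0 ± 12.6 in NK, 6.93 ± 4.15 in mural and 2.78 ± 3.93 in endothelial cells. Its mesenchymal level, 20.7 to 45.5 CPM, overlapped the intermediate range and was 7.47 to 27.8 times the uroplakin background, and 7.68% to 10.7% of mesenchymal cells held a Cldn1 UMI. For Cldn4, Cldn7, Cldn8, Ocln and Tjp3, by contrast, the median mesenchymal levels were 1.03, 0.955, 0.943, 0.740 and 0.997 times the background, in that order, with the widest range for Ocln (0.585 to 2.66).

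Cycling urothelial cells were compared with non-cycling cells of the same libraries, since injury brings urothelial cells into the cell cycle. Of 9 genes tested, 7 fell and none rose, where 29.8% of the 12783 genes tested were called, 14.7% higher and 15.1% lower. Cldn1 had 9.27 to 21.3 CPM in cycling cells (median 15.3) and 18.2 to 32.1 CPM in non-cycling cells (median 23.8), and was lower in 6 of 6 libraries by a log2 fold change of −0.87 ± 0.18 (adjusted p = 0.0020, edgeR). Without acute replicate 1 this was −0.57 (adjusted p = 0.0056), and with a stricter cycling threshold of 4 median absolute deviations it was −1.33 (adjusted p = 1.3e-07). Ocln had 25.7 to 78.5 CPM in cycling and 28.2 to 97.5 CPM in non-cycling cells, with a log2 fold change of −0.52 ± 0.09 (adjusted p = 5.7e-04). Cldn4 (−0.35 ± 0.07), F11r (−0.26 ± 0.07), Tjp3 (−0.24 ± 0.07), Tjp1 (−0.21 ± 0.06) and Cldn7 (−0.17 ± 0.06) fell by less. At the stricter threshold these were −0.62 for Cldn4, −0.42 for F11r, −0.38 for Tjp3 and −0.37 for Cldn7. The Cldn7 call was lost without acute replicate 1 (−0.14, adjusted p = 0.14), acute replicate 2 (−0.16, 0.10), chronic replicate 1 (−0.17, 0.10) or chronic replicate 2 (−0.17, 0.092), and the Tjp3 call without acute replicate 2 (−0.21, 0.069). Cldn8 was at 41.6 to 87.6 CPM in cycling and 46.8 to 87.7 CPM in non-cycling cells and was not called (−0.09 ± 0.08, adjusted p = 0.45). With total UMIs only in place of TMM factors, the share of higher calls among all genes moved from 49.3% to 63.8%.

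Cycling and non-cycling cells differ in their mix of layers, so levels were also read by layer, where several differences were small or turned. In intermediate cells the mean levels of cycling and non-cycling cells were 403 and 376 CPM for Cldn7, 287 and 285 CPM for F11r, 1426 and 1447 CPM for Cldn4, 106 and 111 CPM for Tjp1, 62.1 and 65.8 CPM for Tjp3, 66.8 and 75.2 CPM for Ocln, and 24.9 and 29.3 CPM for Cldn1. In basal cells all 7 genes had the lower mean in cycling cells, such as 42.2 against 59.7 CPM for Ocln and 16.9 against 22.8 CPM for Cldn1. Cycling cells with superficial markers (4 libraries, all acute or chronic) were set beside non-cycling superficial cells (6 libraries), so condition is mixed into this difference. Their mean was lower for 6 of the 7 genes, such as 168 against 193 CPM for F11r and 795 against 806 CPM for Cldn4. Tjp1 was the exception with 91.8 against 80.2 CPM. In the acute and chronic libraries alone, Cldn1 and Cldn7 did not have the lower mean in cycling cells, while Cldn4 and F11r did. There, non-cycling superficial Cldn1 was at 4.40, 7.98, 5.97 and 6.28 CPM beside a cycling mean of 6.82 CPM. Cldn7 was at 189.8, 212, 325 and 197.7 CPM beside a cycling mean of 234 CPM. Cldn8 kept its order among cycling cells, with 10.2 to 22.4 CPM in cycling basal, 36.0 to 56.2 CPM in cycling intermediate and 108 to 143 CPM in cycling cells that carried superficial markers (4 libraries with at least 20 cells). Cldn1 likewise was lowest in the last of these classes, at 3.90 to 10.6 CPM, against 10.5 to 34.9 CPM in cycling basal cells. These levels are descriptions, with no test within layers.

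For the question of injury, libraries of each condition were compared within each layer. No gene of the list was called in any layer in the acute or the chronic condition, and edgeR's quasi-likelihood test called 0% of the 11202, 13152 and 11068 genes tested in basal, intermediate and superficial cells. At an unadjusted p under 0.05, 266, 319 and 522 genes passed for acute and 507, 607 and 640 for chronic against healthy, in the same order of layers. If no gene differed, a share of 0.05 of the genes tested would be expected to pass, so these counts alone do not show a difference. DESeq2 called 11, 15 and 13 genes for acute and 18, 50 and 17 for chronic. Without acute replicate 1, edgeR called 60, 60 and 54 genes for acute against healthy in these layers, none of them on the list, with the lone acute library assumed to vary like the others. Cldn1 in acute intermediate cells was the only call within the list by DESeq2. The acute and chronic comparisons share the healthy libraries, so their values are set side by side only.

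Cldn1 was the gene whose injured libraries stood apart in each layer. In basal cells it was at 12.5 and 15.0 CPM in healthy, 29.5 and 39.0 CPM in acute and 17.0 and 23.9 CPM in chronic libraries. In intermediate cells it was at 20.5 and 20.7, 40.5 and 37.0, and 25.5 and 31.6 CPM, and in superficial cells at 9.47 and 10.4, 4.40 and 7.98, and 5.97 and 6.28 CPM, in the same order. Each injured library thus lay above both healthy libraries in basal and intermediate cells and below both in superficial cells. For acute against healthy, log2 fold changes were 1.38 ± 0.29 in basal, 0.94 ± 0.19 in intermediate and −0.63 ± 0.42 in superficial cells. For chronic against healthy they were 0.61 ± 0.31, 0.49 ± 0.18 and −0.71 ± 0.42. None passed the adjustment (adjusted p from 0.87 to 1.00, edgeR), and for acute intermediate cells the DESeq2 adjusted p was 0.043.

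**Figure D5:**
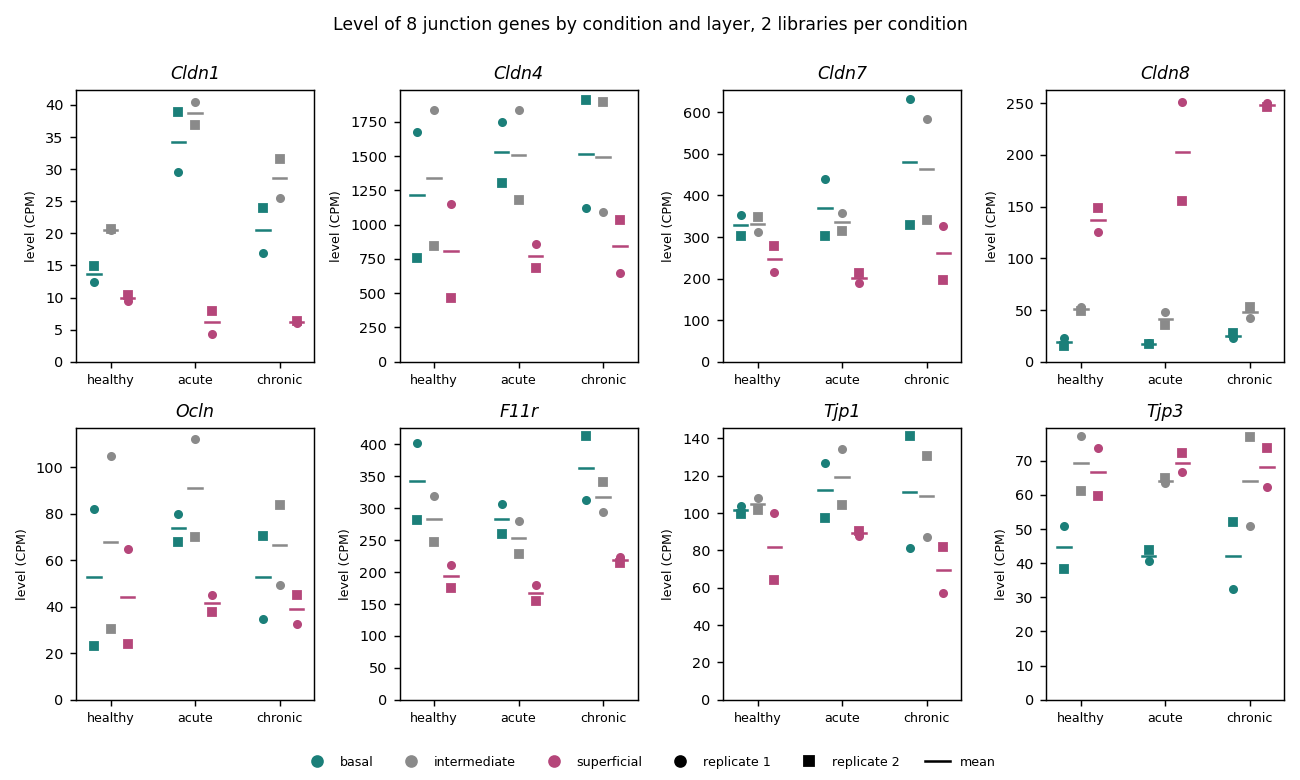
Levels (CPM, linear axes) of 8 tight junction genes in the 2 healthy, 2 acute and 2 chronic libraries, coloured by layer, with a bar at the mean of each pair. For Cldn1, injured libraries sit above both healthy libraries in basal and intermediate cells and below them in superficial cells, and for Cldn8 the injured superficial values, 156 to 251 CPM, sit above the healthy values of 126 and 148 CPM.

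The step in Cldn1 between basal and superficial cells of the same library was then compared between conditions by an interaction term. The log2 ratio of superficial to basal Cldn1 was −0.40 and −0.53 in the healthy libraries, −2.75 and −2.29 in the acute libraries and −1.51 and −1.93 in the chronic libraries. Expressed as a fold, basal cells exceeded superficial cells 1.32 and 1.45 times, 6.71 and 4.88 times, and 2.85 and 3.81 times. The 3 conditions did not overlap, and the share of all genes whose ratios separate in this way was not counted. The interaction was −2.03 ± 0.34 for acute against healthy (adjusted p = 0.022, edgeR), 1 of 10 calls among 10802 genes (0.0926%, of which 0.00926% higher and 0.0833% lower). It was −1.31 ± 0.36 for chronic against healthy (adjusted p = 0.28), where 0.0648% of genes were called, 0.00926% higher and 0.0555% lower. The acute value kept its size but missed the threshold without healthy replicate 1 (−1.99, adjusted p = 0.20), acute replicate 1 (−1.86, 0.069), chronic replicate 1 (−2.03, 0.079) or chronic replicate 2 (−2.03, 0.078), with DESeq2 (−2.06, 0.051) and without the library term (−1.99, 1.00). Superficial Cldn1 rested on 31 and 20 UMIs in the healthy and 20 and 48 UMIs in the acute libraries, which limits its precision. Mesenchymal markers, whose cells also carry Cldn1, summed to 351 and 687 CPM in healthy basal cells and to 228 and 964 CPM in acute basal cells, so the acute libraries lay on either side of the healthy ones, and the part of this RNA in the Cldn1 levels was not tested. Mural markers in basal cells summed to 52.5 and 63.0 CPM in healthy, 79.8 and 96.1 CPM in acute, and 81.1 and 78.8 CPM in chronic libraries. Endothelial markers there summed to 13.6 and 10.3, 13.8 and 21.3, and 15.45 and 19.3 CPM, in the same order. For both lists each injured library lay above both healthy ones, and their part in the Cldn1 levels was not tested. The layer markers moved with Cldn1 as well. The basal list summed to 390 and 431 CPM in acute superficial cells against 624 and 702 CPM in healthy ones, and the superficial list to 1930 and 1883 CPM in acute basal cells against 2306 and 2315 CPM in healthy ones, both without overlap, while each list overlapped between acute and healthy libraries in its own layer. In chronic libraries the basal list in superficial cells (607 to 892 CPM) overlapped the healthy values and the superficial list in basal cells (2504 to 3530 CPM) was above them, as was the basal list in basal cells (5895 to 8528 against 5193 to 5579 CPM). The part of these shifts in the Cldn1 levels and interactions was not tested. None of the other 7 genes was called in either interaction, the nearest being Ocln in the acute condition (−0.65 ± 0.24, adjusted p = 0.47).

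Cldn8 in superficial cells was at 126 and 148 CPM in healthy, 251 and 156 CPM in acute and 249.8 and 246 CPM in chronic libraries. All injured libraries were above both healthy libraries, the second acute library by little. The log2 fold changes were 0.56 ± 0.25 for acute and 0.83 ± 0.25 for chronic, with adjusted p of 1.00 and 0.75 (edgeR). Endothelial markers in superficial cells summed to 12.5 and 12.4 CPM in healthy, 22.2 and 23.9 CPM in acute, and 15.1 and 25.3 CPM in chronic libraries. They too were above both healthy libraries in each injured one, and their part in the Cldn8 levels was not tested. The basal marker list in superficial cells was lower in acute libraries, at 390 and 431 CPM against 624 and 702 CPM in healthy ones. In chronic libraries it overlapped the healthy values (607 to 892 CPM), and its part in the Cldn8 levels was not tested either. In intermediate cells the Cldn8 levels were 53.4 and 48.7 CPM in healthy, 48.3 and 35.2 CPM in acute, and 42.4 and 53.3 CPM in chronic libraries, and the acute values lay below both healthy values (−0.27 ± 0.20). The superficial marker list in intermediate cells was also below, at 6920 and 6023 CPM in acute against 7889 and 7742 CPM in healthy libraries, and its part in the Cldn8 values was not tested. In basal cells both chronic libraries, with 23.2 and 27.4 CPM, were above the healthy libraries with 23.0 and 15.6 CPM (0.43 ± 0.28).

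Counts of genes whose libraries did not overlap were few. Against healthy libraries, acute basal cells had 1 of 8 genes above (Cldn1, where 11.1% of all genes were above) and none below (16.2%). Acute intermediate cells had 1 of 10 above (Cldn1, 11.8%) and 1 below (Cldn8, 13.8%), and acute superficial cells had 1 of 8 above (Cldn8, 15.1%) and 2 below (Cldn1 and Cldn7, 15.8%). Chronic basal cells had 2 of 8 above (Cldn1 and Cldn8, 13.8%) and none below (17.0%). Chronic intermediate cells had 2 of 10 above (Cldn1 and Cldn3, 14.5%) and none below (18.1%), and chronic superficial cells had 2 of 8 above (Cldn8 and F11r, 19.0%) and 1 below (Cldn1, 15.0%). These counts are near those of genes at large. Macrophage markers summed to 40.2 to 86.1 CPM in chronic and 30.5 to 41.6 CPM in healthy basal cells, which overlapped. They did not overlap in intermediate cells (47.9 to 72.9 against 30.8 to 40.5 CPM) or in superficial cells (47.9 to 73.7 against 27.5 to 29.3 CPM), where Cldn3, Cldn8 and F11r of the chronic libraries lay above healthy, and their part in the chronic values was not tested.

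Of the remaining genes, Cldn7 in chronic libraries differed from healthy by 0.59 ± 0.35 in basal, 0.52 ± 0.29 in intermediate and 0.05 ± 0.28 in superficial cells, and chronic replicate 1 alone was high at 631 CPM in basal cells where chronic replicate 2 had 329 CPM. Cldn4 and Ocln varied more between the 2 healthy libraries, with 1676 and 759.7 CPM and with 82.2 and 23.1 CPM in basal cells, than between conditions, so that no difference could be resolved for them. Cldn3 in intermediate cells was at 0.297 and 0.419 CPM in healthy and at 0.936 and 3.16 CPM in chronic libraries (2.57 ± 0.81, adjusted p = 0.98), a value carried by chronic replicate 1. For Tjp1, Tjp3 and F11r, the log2 fold changes over both injuries and all 3 layers lay between −0.26 and 0.21.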

How the data were processed

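Bladder mucosa was peeled from the muscle, digested and run on the 10X Genomics Chromium 3′ platform. The submitters' processing notes name Cell Ranger and mm10, and the deposited values are raw UMI counts, 1 table for each library. The table of healthy replicate 1 is cut in its last line, and genes were limited to the 14450 that all tables list (14338 without mitochondrial and ribosomal protein genes). Each table lists between 15065 and 20180 genes, and gene symbols differ between the tables' annotations. The part of annotation in differences between libraries was not tested.

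Barcodes were required to hold more than 500 genes, with mitochondrial UMIs below 10%, which left 55398 of 56629. Doublets were scored with Scrublet in scanpy 1.11.5 at a rate that scaled with the number of cells, and clusters with over 33.3% doublets were left out. The study used DoubletFinder, which was not repeated. Libraries were normalized with sctransform 0.4.2, integrated with Seurat 5.3.0 over 3000 features and 30 components, and clustered with Leiden (leidenalg 0.10.2, resolution 0.8, 20 neighbours). Junction genes were kept out of features and control genes. Types were named from markers. Urothelial cells were clustered again: superficial cells were non-cycling sub-clusters whose mean superficial marker z exceeded 1.0, other cells were basal or intermediate by the higher of the basal and luminal scores, and 8.22% of these lay within 0.1 of that cut. Cycling cells lay more than 2 median absolute deviations above the median of either cycle score.

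For every class with 20 or more cells in a library, UMIs were added up and given as CPM, relative to the UMIs of the 14338 genes in the sum. Sums were tested with edgeR 4.0.16 (TMM, filterByExpr, quasi-likelihood) in R 4.3.3, with the library as a block between cell classes and conditions as groups within layers, after the scripts had been tested on simulated data. DESeq2 1.42.0, other scalings and filters, and other definitions of cells and layers were alternatives. UMIs, intervals and floors cover counting error only, and the floor was set at 3 UMIs. Beside the 10 listed genes, the text names the 3 highest and 3 lowest called genes of 2 junction lists with a mean of at least 10 CPM, where they belong beside a listed gene, and the 2 genes with the highest Pearson r to each listed gene. The listed genes, lists and tests were chosen with earlier results of these data known.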

Additional observations from a re-analysis of the deposited data

Results flagged for a closer look

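The step in Cldn1 from basal to superficial cells differed between acute and healthy libraries in the interaction test (−2.03 on the log2 scale, adjusted p = 0.022, edgeR), a call that was lost with DESeq2 (adjusted p = 0.051), without the library term and without any of 4 single libraries. Beyond that test, some genes moved to opposite sides in different layers, with both injured libraries on one side of both healthy libraries in one layer and on the other side in another, and none of these contrasts within a layer passed the adjustment. They are listed because they met this pattern. In single layers, 11.1% to 19.0% of all genes lay above and 13.8% to 18.1% below both healthy libraries. How many genes at large moved to opposite sides was not counted. Cldn1 in acute against healthy libraries was 1.38 in basal and 0.94 in intermediate cells but −0.63 in superficial cells. Cldn1 in chronic against healthy libraries was 0.61 and 0.49 in basal and intermediate cells and −0.71 in superficial cells, and the interaction of superficial and basal cells was not called (−1.31, adjusted p = 0.28, edgeR). The differences of superficial from intermediate cells were not tested for Cldn1. Cldn8 in acute libraries was −0.27 in intermediate and 0.56 in superficial cells. For Cldn8 the difference between these 2 layers was not tested, and the interaction of superficial and basal cells was not called (0.58 ± 0.29, adjusted p = 0.67, edgeR).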

How the results depend on the processing

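Over all alternatives, 1773 values of single genes stayed on their side of the threshold, 48 lost a call, 7 gained one, and no called value changed sign. Counts of called genes of the list that moved most are the following, and the causes were not tested. In the acute interaction, 1 gene (Cldn1) was called, and 0 with DESeq2 (−2.06, adjusted p = 0.051) or without the library term, and leaving out single libraries gave 0 to 1. The chronic interaction called 1 (Cldn1, −1.24, adjusted p = 0.025) with quintiles as layers. For acute intermediate cells DESeq2 called 1 (Cldn1). Between intermediate and basal cells 5 genes were called, 2 without the library term, and 3 to 4 when single libraries were left out (3 without chronic replicate 2). Between cycling and non-cycling cells 7 were called and 0 without the library term. Tjp1 in endothelial cells was called with RLE factors, total UMIs only, no integration or doublets kept (0.53 to 0.69). Correlations of deviations between same-numbered libraries of different conditions ran from −0.305 to 0.276. In each layer they were positive for healthy with acute (0.102 to 0.276) and negative for the pairs with chronic (−0.305 to −0.103). Whether replicate numbers pair samples or follow a batch cannot be told from these values. With the replicate number as a block, 0 listed genes were called in each layer and 1 in the acute interaction, and among all genes calls went from 0 to 4 (acute) and 3 (chronic) in superficial cells and from 10 and 7 to 18 and 19 in the interactions. Without acute replicate 1, calls among all genes for acute against healthy went from 0 to 60, 60 and 54 in basal, intermediate and superficial cells, and for chronic basal cells to 6. Calls among all genes in the acute and chronic interactions varied widely: 16 and 12 with total UMIs only, 91 and 67 without the filter on low counts, 68 and 43 with stricter cells, 105 and 117 with quintiles, 0 and 0 without the library term, and 0 to 61 and 0 to 38 when single libraries were left out. Endothelial cells were few, and 2 libraries per condition limit what can be resolved.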

Other observations

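Within the urothelium, the levels of 5 of the genes in sub-clusters are given as values with no test, because the sub-clusters were drawn from the same cells. Sub-cluster 11, led by Nccrp1, Cyp2f2, Igfbp3 and Krt4, held 1108 cells, of which 694 came from chronic replicate 1. It had the highest mean level of Cldn1 (57.8 ± 24.3 CPM, SD, n = 6 libraries), of Cldn3 (11.3 ± 12.8 CPM) and of Cldn7 (524 ± 184 CPM). Ocln was highest in sub-cluster 1, at 110.4 ± 45.3 CPM. Cldn8 reached 192 ± 54.8 CPM in sub-cluster 3, which is superficial, followed by the mostly cycling sub-cluster 13 (95.6 ± 7.48 CPM, n = 4 libraries).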
